A study of Mus musculus with 16 samples.

Results

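The course of marrow CD8+ T cells under baricitinib was followed by comparing 3 RNA-seq libraries of drug-treated mice at day 14 with 5 such libraries at day 10, 8 of the 16 libraries in the series. Libraries were taken by their treatment label, BAR-day14 or BAR-day10. In the BAR day 14 group, mice with induced bone marrow failure (BMF) had received baricitinib (BAR), and their marrow CD8+ T cells were sorted by flow cytometry 14 days after induction. The BAR day 10 group was the same material at 10 days after induction. All 8 libraries therefore carried both the disease and the drug, and no healthy or drug-free library stands in the comparison itself. The labels give no strain, dose, schedule of the drug, sex or age, and they name pooled cells without saying that libraries came from separate animals, so a p-value here measures library-to-library spread, and that spread may be technical. The course without the drug, 3 BMF day 14 against 5 BMF day 10 libraries, served as a yardstick and shares no library with the BAR course. Day and harvest cannot be told apart in either course.

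Baricitinib blocks JAK1 and JAK2, kinases that sit on the receptors for interferons and for many interleukins. A bound receptor activates these kinases, they phosphorylate STAT transcription factors, and STAT dimers switch on target genes. Type I interferon acts mainly through a complex of STAT factors with IRF9 at interferon-stimulated response elements, and interferon gamma acts mainly through STAT dimers at gamma-activated sites. In immune-mediated marrow failure, activated CD8+ T cells and their interferon gamma destroy blood-forming cells, and killing itself is carried out by perforin and granzymes from cytotoxic granules.

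Totals ran from 36794340 to 44645553 counts per BAR day 14 library and from 32717375 to 58823116 per BAR day 10 library. The data bore out the label of the sorted cell. Cd8a, a chain of the CD8 co-receptor, was at 657, 597 and 716 CPM at BAR day 14, against 774, 586, 569.8, 713 and 685 CPM at BAR day 10, so its ranges overlapped (log2 fold change -0.02 (adjusted p = 0.916)). At a common depth of 26066991 counts, 15396 to 15596 genes had a count at BAR day 14 and 17623 to 21004 at BAR day 10. The first principal component of the 1000 most variable genes held 68.7% of the variance and separated the days, and the second, with 15.4%, spread the day 10 libraries, with replicates 2 and 3 at 19.8 and 21.9, replicate 5 at -4.97 and replicates 1 and 4 at -22.8 and -25.4. Markers of other cell types also differed between the days. Summed neutrophil genes, 23 in number, stood at 49105, 53757 and 40953 CPM at BAR day 14, against 5058, 11571, 10823, 4885 and 14100.1 CPM at BAR day 10. This was a 5.16-fold higher mean (exact two-sided permutation p = 0.0357, the smallest that 3 against 5 libraries can give; 0.0774 after adjustment over 13 lists). In bulk RNA, more cells of a type and more RNA per cell cannot be told apart. Beside the results stand values from 2 other fits; T cell scaling, and the neutrophil covariate for the difference of the courses, were chosen after the data were seen. The neutrophil covariate adds the log2 of the summed neutrophil level of each library to the model. This level was 15.3 to 15.7 at BAR day 14 and 12.3 to 13.8 at BAR day 10, so it moved with the day. A call lost or kept in that fit therefore does not show which cells the RNA came from. T cell scaling sets libraries to equal levels of T cell receptor and Cd8 genes, and it moved the median log2 fold change of all genes to -0.16.

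**Figure D1:**
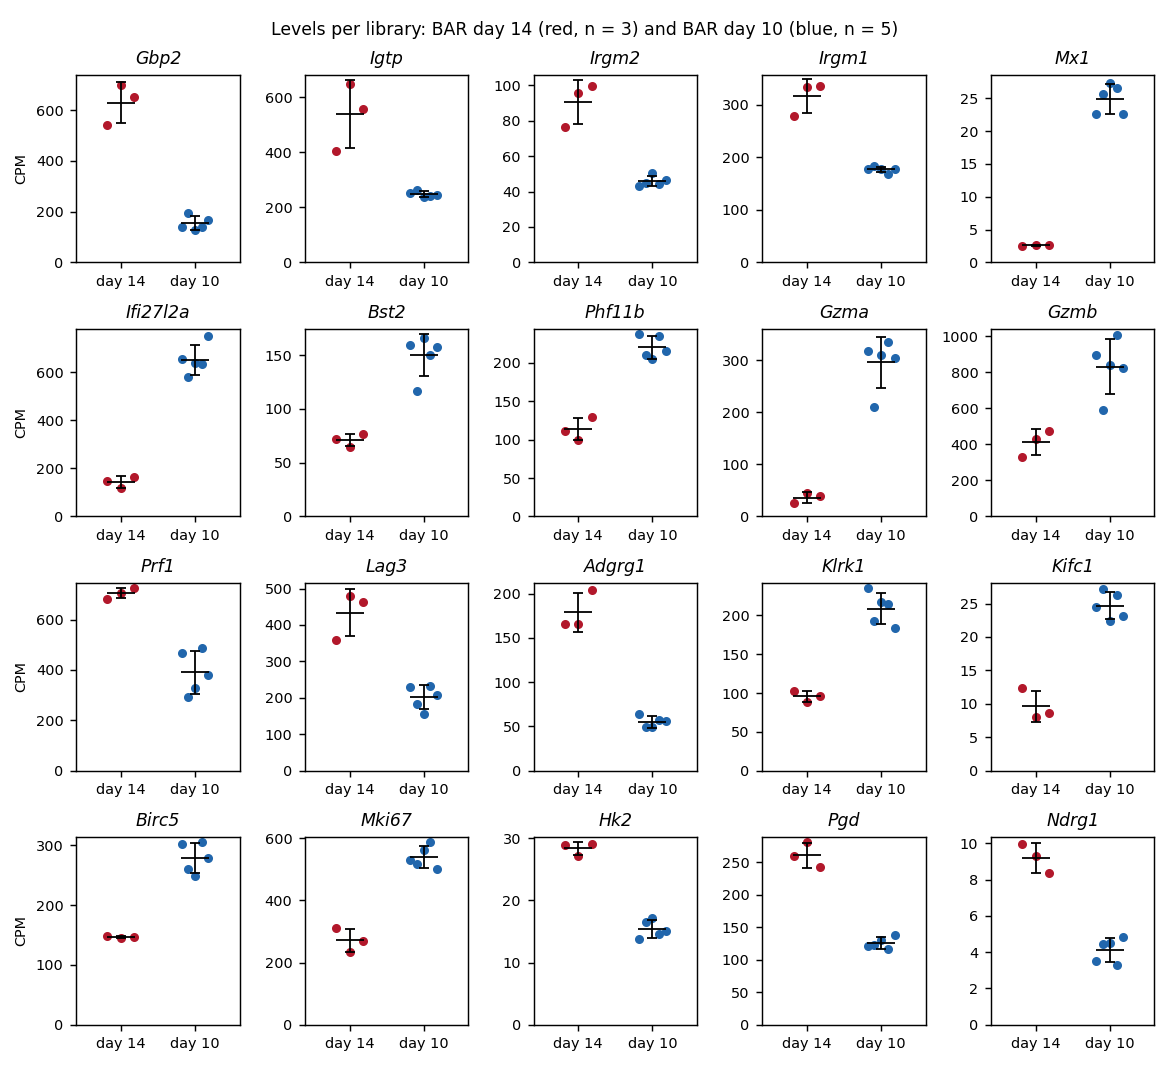
Levels of 20 genes in CPM (counts scaled to library size, vertical axes from 0) in each library at BAR day 14 (red points, left, n = 3) and BAR day 10 (blue points, right, n = 5), with the mean (horizontal bar) and SD (error bar). In each panel the 2 groups do not overlap: the upper row holds interferon-gamma-induced genes that were higher at day 14, such as Gbp2, and Mx1, a type I interferon-stimulated gene that was lower at day 14, as were Ifi27l2a, Bst2 and Phf11b in the second row.

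Sequence near the gene starts is shown for genes of both interferon lists, the mitosis list and the glycolysis list. These genes were picked by hand after their values were seen, and only windows that hold the short motif in question were taken. Each is the RefSeq window of GRCm38.p6 from 250 bases before to 50 bases after an annotated start, and the matched letters are in capitals. A pair of genes that were lower at BAR day 14, Bst2 and Phf11b, and a pair that was higher, Gbp2 and Igtp, share the letters of an interferon-stimulated response element, GAAA repeated after a gap of 2 bases, on either strand. In Igtp the capitals also mark a gamma-activated site, TTCNNNGAA, just upstream of it.
Bst2 (chr8:71537423-71537722, minus strand): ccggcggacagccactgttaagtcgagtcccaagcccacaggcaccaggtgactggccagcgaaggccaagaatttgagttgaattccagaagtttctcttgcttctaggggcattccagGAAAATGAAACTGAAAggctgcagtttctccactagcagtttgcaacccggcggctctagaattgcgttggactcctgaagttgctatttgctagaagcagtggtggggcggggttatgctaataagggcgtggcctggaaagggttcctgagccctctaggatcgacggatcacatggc
Phf11b (chr14:59341281-59341580, minus strand): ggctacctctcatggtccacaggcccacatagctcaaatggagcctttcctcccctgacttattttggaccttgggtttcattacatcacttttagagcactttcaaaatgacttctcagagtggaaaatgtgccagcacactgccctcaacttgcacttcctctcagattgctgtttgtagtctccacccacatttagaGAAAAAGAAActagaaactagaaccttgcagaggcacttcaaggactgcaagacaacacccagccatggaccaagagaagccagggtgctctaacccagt
Gbp2 (chr3:142620413-142620712, plus strand): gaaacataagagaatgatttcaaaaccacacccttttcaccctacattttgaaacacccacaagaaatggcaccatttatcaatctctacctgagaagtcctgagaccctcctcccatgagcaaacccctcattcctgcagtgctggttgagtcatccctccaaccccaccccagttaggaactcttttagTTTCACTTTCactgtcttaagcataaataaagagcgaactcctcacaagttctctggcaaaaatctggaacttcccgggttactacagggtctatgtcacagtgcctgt
Igtp (chr11:58199306-58199605, plus strand): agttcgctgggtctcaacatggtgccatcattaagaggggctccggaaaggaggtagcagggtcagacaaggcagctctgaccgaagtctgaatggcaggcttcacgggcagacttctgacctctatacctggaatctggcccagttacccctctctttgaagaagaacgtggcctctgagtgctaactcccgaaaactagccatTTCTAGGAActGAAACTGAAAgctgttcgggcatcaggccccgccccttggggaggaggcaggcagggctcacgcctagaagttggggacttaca
Ckap2 and Kifc1, a pair of mitosis genes that were lower at BAR day 14, hold the letters of the cell cycle genes homology region, TTTGAA on either strand, the element through which such genes are silenced outside of division.
Ckap2 (chr8:22185770-22186069, minus strand): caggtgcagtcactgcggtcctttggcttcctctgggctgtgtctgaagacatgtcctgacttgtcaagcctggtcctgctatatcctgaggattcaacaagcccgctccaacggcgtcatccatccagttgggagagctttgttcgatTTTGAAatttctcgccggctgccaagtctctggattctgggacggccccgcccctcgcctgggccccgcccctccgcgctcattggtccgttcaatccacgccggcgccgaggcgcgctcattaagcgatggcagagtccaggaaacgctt
Kifc1 (chr17:33890584-33890883, minus strand): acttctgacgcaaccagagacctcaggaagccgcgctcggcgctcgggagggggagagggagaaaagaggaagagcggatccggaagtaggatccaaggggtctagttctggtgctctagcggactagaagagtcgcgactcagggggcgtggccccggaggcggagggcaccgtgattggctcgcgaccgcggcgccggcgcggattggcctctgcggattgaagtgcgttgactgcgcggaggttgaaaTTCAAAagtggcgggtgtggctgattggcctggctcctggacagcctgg
Hk2, which encodes the glucose-phosphorylating enzyme hexokinase 2 and was higher at BAR day 14, has the core of a hypoxia response element, ACGTG on either strand, in 2 places.
Hk2 (chr6:82774405-82774704, minus strand): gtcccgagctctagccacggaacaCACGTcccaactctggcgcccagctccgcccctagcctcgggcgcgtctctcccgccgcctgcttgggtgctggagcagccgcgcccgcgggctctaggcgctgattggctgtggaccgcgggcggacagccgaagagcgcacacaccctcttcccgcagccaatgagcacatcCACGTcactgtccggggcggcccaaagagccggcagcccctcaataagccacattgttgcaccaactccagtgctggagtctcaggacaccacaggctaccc

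Of 14862 genes tested, 5808 (39.1%) differed between BAR day 14 and BAR day 10 at an adjusted p under 0.05 in edgeR's quasi-likelihood test, 2859 (19.2%) higher and 2949 (19.8%) lower. The CPM of the groups did not overlap for 6140 genes (41.3%), and 5092 (34.3%) were both called and without overlap. A change of at least 2-fold was found for 932 genes (6.27%) that were higher and 1000 (6.73%) that were lower. Of the 1000, 603 were genes with a mean of at most 0.5 CPM, and these moved with the lower number of genes detected per library at day 14. Among genes with a mean over 10 and up to 50 CPM, 254 rose and 67 fell by at least 2-fold, and among those over 50 CPM 129 rose and 33 fell. The neutrophil covariate left 1550 calls among the 14862 genes, 610 higher and 940 lower. List counts given below for that fit shrink with these, and the 39.1% of all genes belongs to the main fit only. There were 3842 calls without BAR day 14 replicate 2 and 3472 without BAR day 10 replicates 1, 4 and 5. T cell scaling split the calls into 1154 higher and 3089 lower, and list counts under it are to be read beside that split. The BMF course had 5728 calls (38.5%), 2623 higher (17.6%) and 3105 lower (20.9%), and 3051 genes were called in both courses, which is 52.5% of the BAR calls and 53.3% of the BMF calls. Of these, 2833 moved the same way and 218 moved in opposite directions. The test of the difference between the courses called 1535 genes (10.3%), 743 (5.0%) with the higher change under baricitinib and 792 (5.33%) with the lower. T cell scaling split the BMF calls into 235 higher and 7430 lower, and those of the difference into 1176 higher and 97 lower. It moved the median difference of all genes from 0.02 to 0.34. Of the genes described below, the neutrophil covariate ended the BAR calls of Asns, Batf2, Bcl2l11, Ccl5, Cd200r1, Cd3e, Ddx21, Dusp2, Isg15, Mcm5, Mpo, Ngp, Nop56, Prkcq, Stat6, Tigit, Tmcc2 and Top2a, and T cell scaling those of Mpo, Socs1, Stat6, Tap1 and Tox. Mpo and Ngp are among the genes summed in the neutrophil covariate, so their loss there is built into that fit.

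Genes induced by interferon gamma were higher at day 14. Of 44 tested, 24 rose and 1 fell, where 19.2% and 19.8% of all genes did so, and their median log2 fold change was 0.45 beside -0.04 over all genes. Gbp2, a guanylate-binding protein that attacks the vacuoles of intracellular pathogens, was at 540.2, 699.7 and 650.3 CPM at BAR day 14, against 141, 194, 128, 141 and 169 CPM at BAR day 10. Every day 14 library lay far above every day 10 library, and the fitted fold was 4.08 (log2 fold change 2.03, SE 0.16, adjusted p = 9.26e-07). The gene lies on chromosome 3 (142620602 to 142638008, plus strand, GRCm38) and carries the response element shown above.

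The immunity-related GTPases, which act with the guanylate-binding proteins on pathogen vacuoles, behaved alike. Igtp was at 406, 650.1 and 558 CPM at BAR day 14, against 254, 262, 237, 241 and 245 CPM at BAR day 10 (log2 fold change 1.12, SE 0.12, adjusted p = 4.95e-06). Irgm2, a regulator of these GTPases, was at 76.5, 95.8 and 99.7 CPM at BAR day 14, against 43.1, 44.9, 50.5, 44.1 and 46.6 CPM at BAR day 10 (log2 fold change 0.98, SE 0.10, adjusted p = 3.36e-06). For both genes the lowest day 14 library was well above the highest day 10 library. Irgm1, a further regulator, had a log2 fold change of 0.84 (adjusted p = 3.89e-06). Igtp and Irgm2 are neighbours of 1 gene family, and Gbp2 has a close relative in Gbp2b, so the split of reads between such relatives is uncertain.

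The same list holds genes of antigen processing. Tap1, which pumps peptides toward MHC class I, rose by 0.40 on the log2 scale (adjusted p = 0.00226), and Tapbp, which loads them, by 0.56 (adjusted p = 7.4e-05). Irf1, an early target of interferon gamma signals, gave 0.08 (adjusted p = 0.559). Ifng itself, the gene of interferon gamma, was at 355, 172 and 260.4 CPM at BAR day 14, against 254, 212, 172, 247 and 214 CPM at BAR day 10 (log2 fold change 0.25, SE 0.24, adjusted p = 0.428). The Ifng ranges overlapped. Batf2, a basic leucine zipper factor induced by interferon gamma, was at 17, 17.6 and 18.7 CPM at BAR day 14, against 2.2, 3.69, 1.37, 1.8 and 3.52 CPM at BAR day 10 (log2 fold change 2.83, SE 0.47, adjusted p = 0.000563). This was the largest fold in the list, and with the neutrophil covariate it came to 1.15 (adjusted p = 0.0607).

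In the BMF course 10 members of this list rose and 10 fell, where 17.6% and 20.9% of all genes did so, and their median was 0.08. The difference between the courses was called for 17 members, 15 with the higher change under baricitinib and 2 with the lower, where the background is 5.0% and 5.33%. Under T cell scaling, which moved the median difference of all genes to 0.34, these became 24 and 0. The median difference of the list less that of all genes was 0.56 in the main fit and 0.54 under T cell scaling. Gbp2 changed by 0.27 (adjusted p = 0.198) without the drug, a difference of 1.75 (adjusted p = 0.000671). For Igtp the BMF value was 0.12 (adjusted p = 0.466) and the difference 1.0 (adjusted p = 0.00205). Cd274, which encodes the inhibitory ligand PD-L1 and was picked after its values were seen, averaged 33.2 ± 3.28 CPM at BAR day 14 and 21.7 ± 2.78 CPM at BAR day 10 (SD, n = 3 and 5). Without the drug it averaged 18.5 ± 1.21 CPM at BMF day 14 and 27.2 ± 5.51 CPM at BMF day 10 (SD, n = 3 and 5). The BAR course had the higher change, with a difference of 1.17 (adjusted p = 0.00165). The neutrophil covariate left 16 members higher and 0 lower in the BAR course, at a median of 0.47, and Gbp2 came to 1.5 (adjusted p = 7.1e-05).

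Type I interferon-stimulated genes moved the other way. Of 59 tested, 28 fell and 8 rose, where 19.8% and 19.2% of all genes did so, and their median was -0.30. Mx1, a GTPase that blocks virus replication, was at 2.53, 2.62 and 2.64 CPM at BAR day 14, against 22.6, 25.7, 27.4, 26.6 and 22.6 CPM at BAR day 10 (log2 fold change -3.26, SE 0.28, adjusted p = 1.97e-06). Its day 10 levels were 9.59 times the day 14 levels. Its 3 day 14 values were nearly equal and far below the lowest day 10 value. Mx1 lies on chromosome 16 (97447035 to 97462907, minus strand, GRCm38), beside its relative Mx2, with which it may share reads. Ifi27l2a, a small interferon-induced membrane protein, was at 146, 116 and 165 CPM at BAR day 14, against 655, 579, 637, 635 and 749 CPM at BAR day 10 (log2 fold change -2.19, SE 0.19, adjusted p = 1.89e-06).

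Smaller falls ran through sensors, regulators and effectors of the type I response. Bst2, or tetherin, which holds budding viruses on the cell surface, was at 71.7, 64.8 and 76.7 CPM at BAR day 14, against 159.7, 117, 166, 150.1 and 157 CPM at BAR day 10 (log2 fold change -1.08, SE 0.12, adjusted p = 7.86e-06). Phf11b, a zinc finger protein gene induced by interferon with close relatives beside it, was at 112, 99.9 and 129 CPM at BAR day 14, against 237, 209.7, 205, 234 and 215 CPM at BAR day 10 (log2 fold change -0.96, SE 0.11, adjusted p = 9.04e-06). Neither gene had overlapping groups. Dhx58, an RNA sensor of the RIG-I family, had -0.87 (adjusted p = 9.39e-06), Irf7, the factor that amplifies type I interferon, had -0.74 (adjusted p = 0.0043), and Isg15, a ubiquitin-like modifier, had -0.52 (adjusted p = 0.0192). Usp18, which removes ISG15 and holds back the type I receptor, was at 34.7, 43 and 40.4 CPM at BAR day 14, against 64.3, 74.4, 83.6, 69.3 and 72.2 CPM at BAR day 10 (log2 fold change -0.88, SE 0.14, adjusted p = 0.000113). Pml, the organizer of nuclear bodies, was at 69.5, 61.6 and 72.5 CPM at BAR day 14, against 109, 98.8, 117, 117 and 101 CPM at BAR day 10 (log2 fold change -0.68, SE 0.09, adjusted p = 2.29e-05). Among the 8 members that rose, Oasl2, an oligoadenylate synthetase-like protein, had 1.73 (adjusted p = 0.0103) and Ube2l6, an enzyme of ISG15 conjugation, had 1.53 (adjusted p = 2.99e-05), both named after their values were seen.

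Without the drug 15 members rose and 8 fell, where 17.6% and 20.9% of all genes did so, and their median was 0.08. The courses differed for 22 members, 20 with the lower change under baricitinib, beside 10.3% and 5.33% of all genes. Ifi27l2a changed by -0.11 (adjusted p = 0.656) in the BMF course, a difference of -2.08 (adjusted p = 0.000481). Pml rose there by 0.31 (adjusted p = 0.00883) and differed by -0.99 (adjusted p = 0.000481), and Dhx58 differed by -1.11 (adjusted p = 0.000481). Mx1 fell in both courses, with -1.78 (adjusted p = 0.000113) without the drug, and the courses differed by -1.49 (adjusted p = 0.0155). That call was lost in both other fits, with -1.17 (adjusted p = 0.052) under the neutrophil covariate and -1.13 (adjusted p = 0.0538) under T cell scaling. The neutrophil covariate left 19 members lower and 1 higher under baricitinib, at a median of -0.40, and the courses differed for 2 higher and 14 lower. Under T cell scaling, which moved the median difference of all genes to 0.34, they differed for 2 higher and 7 lower. The median difference of the list less that of all genes was -0.45 in the main fit and -0.44 under T cell scaling.

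**Figure D2:**
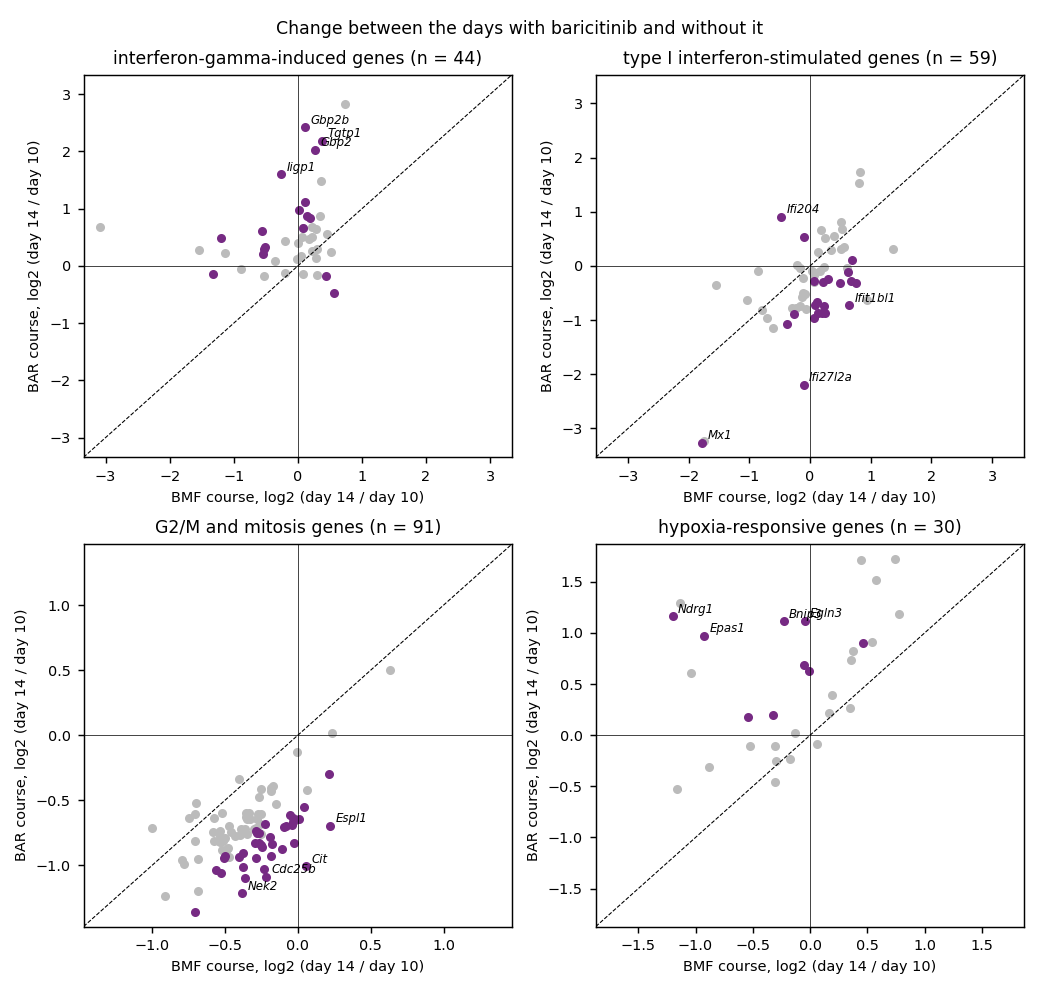
Log2 fold change of day 14 over day 10 with baricitinib (vertical axis) against the same change without it (horizontal axis), 1 point per gene in 4 lists; the dashed line marks equal change, and purple points are genes whose courses differed at an adjusted p under 0.05. Interferon-gamma-induced genes lie mostly above the line (15 of the 17 purple points), and hypoxia-responsive genes above it (9 of 9). Type I interferon-stimulated genes (20 of 22) and mitosis genes (37 of 37) lie below it. For mitosis genes it was 1 of 2 under T cell scaling, which moved the median difference of all genes to 0.34.

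Both interferon lists held the response element in like shares of their windows. Promoter windows were found for 46 of the 59 type I genes and 28 of the 44 interferon-gamma-induced genes. The repeated GAAA stood in the first listed window of 20 (43.5%) and 12 (42.9%) of them, beside 3.23% of the 11207 tested genes that have a window. Of the 20 type I genes with these letters, 11 fell and 1 rose (median -0.57), and of the 26 without them, 8 fell and 6 rose (median -0.09). Of the 12 interferon-gamma-induced genes with the letters, 10 rose and 0 fell (median 0.91), and of the 16 without, 9 rose and 0 fell (median 0.43). TTCNNNGAA was found in 13% of type I windows, 42.9% of interferon-gamma windows and 7.29% of all windows. A match is a run of letters and not a shown binding site.

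Among the components of the pathway that the drug targets, the balance of calls depended on the scaling. Of 35 kinases, STAT factors and receptor chains, 12 rose and 3 fell, where 19.2% and 19.8% of all genes did so, and under T cell scaling 3 rose and 3 fell. The median of 0.09 turned to -0.04 under that scaling. Jak1 was at 765, 768 and 855 CPM at BAR day 14, against 674, 769.8, 621, 719 and 675 CPM at BAR day 10 (log2 fold change 0.20, SE 0.09, adjusted p = 0.0912). Jak2 was at 124, 92.5 and 108 CPM at BAR day 14, against 104, 137, 116, 109.7 and 108 CPM at BAR day 10 (log2 fold change -0.09, SE 0.10, adjusted p = 0.484). Both sets of ranges overlapped. Stat3, which serves interleukin 6 and its relatives, rose by 0.55 (adjusted p = 0.000543), and Stat6, which serves interleukin 4, by 0.39 (adjusted p = 0.00165). Il12rb2, a chain of the interleukin 12 receptor, was at 5.31, 3.46 and 4.06 CPM at BAR day 14, against 5.09, 3.74, 4.88, 3.5 and 4.26 CPM at BAR day 10 (log2 fold change -0.01, SE 0.20, adjusted p = 0.971). It changed by -1.0 (adjusted p = 0.000945) without the drug, a difference of 0.99 (adjusted p = 0.0312). Il2ra, the high-affinity chain of the interleukin 2 receptor, had -0.55 (adjusted p = 0.0997) under baricitinib.

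Among feedback regulators and STAT5 targets, 11 of 42 rose and 5 fell, against 4 and 6 under T cell scaling. They were called about as often as all genes, 38.1% beside 39.1%. Socs1, the main brake on interferon gamma signalling, was at 43.6, 55.6 and 59.3 CPM at BAR day 14, against 35.4, 32.4, 41.8, 36.6 and 39.3 CPM at BAR day 10 (log2 fold change 0.51, SE 0.12, adjusted p = 0.00407), with no overlap. Pim1, a survival kinase induced by STAT5, was lower, at 58.5, 61.7 and 58.9 CPM at BAR day 14, against 71.3, 113, 76.7, 77.7 and 89.5 CPM at BAR day 10 (log2 fold change -0.52, SE 0.14, adjusted p = 0.0096). Cish, a STAT5-induced brake, and Socs3, the brake on interleukin 6 signals, gave 0.30 (adjusted p = 0.3) and 0.09 (adjusted p = 0.807). Ccnd2, a cyclin of early G1, rose by 0.71 (adjusted p = 4.61e-05) and by 0.73 in the BMF course. The median of this list, 0.07, turned to -0.06 under T cell scaling.

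Killing genes split, with 13 of 40 higher and 8 lower, or 7 and 9 under T cell scaling. The called share was 52.5%, beside 39.1% of all genes. Gzma, the granzyme with trypsin-like specificity, had the largest fall of the list. It was at 25.5, 44.4 and 39 CPM at BAR day 14, against 318, 211, 310.0, 335 and 304 CPM at BAR day 10, and it lies on chromosome 13 (113093825 to 113100981, minus strand, GRCm38). The highest day 14 value was far below the lowest day 10 value, that of replicate 2. Day 10 levels were 8.14 times the day 14 levels (log2 fold change -3.02, SE 0.26, adjusted p = 3.06e-06), and with the neutrophil covariate the log2 fold change was -2.89 (adjusted p = 0.000543). In the BMF course Gzma changed by -0.26 (adjusted p = 0.375), at 221 ± 53.2 CPM at BMF day 14 and 265 ± 61.3 CPM at BMF day 10 (SD, n = 3 and 5), and the courses differed by -2.76 (adjusted p = 0.000526).

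Gzmb, the granzyme that cleaves caspases and their substrates, was also lower, at 333, 428 and 473 CPM at BAR day 14, against 894, 590.4, 842, 1009 and 824 CPM at BAR day 10 (log2 fold change -1.02, SE 0.14, adjusted p = 4.75e-05). It changed by -0.89 (adjusted p = 0.000159) without the drug, with a difference of -0.13 (adjusted p = 0.742). Prf1, which encodes the pore-forming perforin, was higher, at 684, 706 and 724 CPM at BAR day 14, against 469, 292, 327, 486 and 379 CPM at BAR day 10 (log2 fold change 0.85, SE 0.15, adjusted p = 0.000527). The groups of both genes were apart. The lysosomal membrane proteins Lamp1 and Lamp2, which line cytotoxic granules and lysosomes of other cells, rose by 0.79 and 0.89 (adjusted p = 5.61e-05 and adjusted p = 2.77e-05). Gzmk, a granzyme of less differentiated effectors, gave -0.17 (adjusted p = 0.438), and Fasl, the ligand of the death receptor Fas, 0.07 (adjusted p = 0.586). Without the drug Fasl rose by 0.76 (adjusted p = 1.6e-05), and the courses differed by -0.69 (adjusted p = 0.00414). Under T cell scaling this difference was -0.35 (adjusted p = 0.183), no longer a call.

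Ccl3 and Ccl5, chemokines that CD8+ T cells release, were both higher. Ccl3 was at 765, 662 and 699 CPM at BAR day 14, against 412, 248, 310.4, 408 and 299 CPM at BAR day 10 (log2 fold change 1.08, SE 0.16, adjusted p = 7.34e-05). The chemokine changed by 0.00 (adjusted p = 0.984) without the drug, a difference of 1.07 (adjusted p = 0.00746). Ccl5 was at 6394, 7089 and 8034 CPM at BAR day 14, against 4329.7, 4454, 3069, 4380.3 and 5157 CPM at BAR day 10 (log2 fold change 0.75, SE 0.17, adjusted p = 0.00285). This gene rose by 1.63 (adjusted p = 4.41e-06) without the drug, a difference of -0.89 (adjusted p = 0.0295), opposite in sign to that of Ccl3. Under T cell scaling the Ccl5 difference was -0.55 (adjusted p = 0.0737) and the call was lost. For both chemokines the day 14 libraries lay above all day 10 libraries. The median of the killing list, 0.08, turned to -0.02 under T cell scaling.

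Klrk1, which encodes the activating receptor NKG2D that natural killer cells share, was lower, at 103, 88.7 and 96.3 CPM at BAR day 14, against 235, 192, 217, 214 and 184 CPM at BAR day 10 (log2 fold change -1.12, SE 0.10, adjusted p = 9.26e-07). Klrd1, Klrc1 and Klre1, lectin-like receptors of the same cluster that were named after their values were seen, had log2 fold changes of -0.69 (adjusted p = 0.0134), -0.32 (adjusted p = 0.0282) and -1.35 (adjusted p = 0.00011). Adgrg1, an adhesion receptor of cytotoxic lymphocytes, was higher, at 166, 166 and 204 CPM at BAR day 14, against 64, 48.8, 48.9, 56.6 and 56.6 CPM at BAR day 10 (log2 fold change 1.70, SE 0.11, adjusted p = 2.63e-08). Its groups were far apart, at a fitted fold of 3.25, and it rose by 1.98 (adjusted p = 4.1e-09) without the drug. Cd44, the adhesion molecule of activated and memory T cells, was at 172, 171 and 143 CPM at BAR day 14, against 81.6, 95.6, 104, 77 and 93.5 CPM at BAR day 10 (log2 fold change 0.84, SE 0.10, adjusted p = 1.41e-05). Its change differed from the BMF course by 0.95 (adjusted p = 0.00117). Over the effector differentiation list 9 of 51 rose and 15 fell, beside 19.2% and 19.8% of all genes. The balance turned to 6 higher and 3 lower with the neutrophil covariate, and it was 7 and 7 without BAR day 10 replicates 1, 4 and 5. Its transcription factors Tbx21, Eomes, Prdm1 and Zeb2 gave -0.26 (adjusted p = 0.0813), -0.14 (adjusted p = 0.29), 0.05 (adjusted p = 0.771) and 0.11 (adjusted p = 0.632), and Klrg1 and Cx3cr1, markers of terminal effectors, 0.16 (adjusted p = 0.576) and 0.10 (adjusted p = 0.615).

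Checkpoint genes split as well. Lag3, an inhibitory receptor for MHC class II, was at 359.9, 479 and 463 CPM at BAR day 14, against 231, 184, 156, 232 and 208 CPM at BAR day 10 (log2 fold change 1.10, SE 0.13, adjusted p = 1.29e-05), with every day 14 library above day 10. Tigit, which competes for the ligands of a costimulatory receptor, rose by 0.64 (adjusted p = 0.00716), and Tox, the factor that sustains exhausted T cells, by 0.30 (adjusted p = 0.0148); the Tox call was lost under T cell scaling. Ctla4, which removes costimulatory ligands, was lower, at 31.5, 23.4 and 28.1 CPM at BAR day 14, against 58, 81.9, 54, 53.5 and 62.3 CPM at BAR day 10 (log2 fold change -1.16, SE 0.17, adjusted p = 0.000127). Pdcd1, the gene of PD-1, gave -0.12 (adjusted p = 0.453) and Havcr2, the gene of TIM-3, 0.21 (adjusted p = 0.187). In all 11 of 42 rose and 8 fell, a called share of 45.2% beside 39.1% of all genes. Under T cell scaling 5 rose and 10 fell, and the median of 0.07 turned to -0.06. In the BMF course 20 rose and 8 fell, where 17.6% and 20.9% of all genes did so, at a median of 0.26. Cd200r1, an inhibitory receptor for CD200, was at 37.6, 35 and 38.3 CPM at BAR day 14, against 68.3, 48.7, 65.6, 68.6 and 57.6 CPM at BAR day 10 (log2 fold change -0.74, SE 0.14, adjusted p = 0.000531). It rose by 0.79 (adjusted p = 0.000226) without the drug, a difference between the courses of -1.53 (adjusted p = 0.000481).

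Naive and memory markers showed no common direction, with 11 of 53 higher and 10 lower, a called share of 39.6% beside 39.1% of all genes. The counts were 4 and 1 with the neutrophil covariate and 3 and 10 under T cell scaling. Tcf7, which encodes TCF-1 of stem-like memory cells, gave 0.07 (adjusted p = 0.789), Il7r 0.29 (adjusted p = 0.571), Ccr7 -0.14 (adjusted p = 0.798), S1pr1 -0.13 (adjusted p = 0.702) and Klf2 -0.30 (adjusted p = 0.306). Actn1, an actin cross-linker of naive cells, rose by 1.33 (adjusted p = 2.82e-06), and Als2cl, of the same list, had -1.10 (adjusted p = 1.83e-05).

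Genes of the T cell receptor complex and its signalling were called about as often as all genes, 34.8% beside 39.1%, with 6 of 46 higher and 10 lower. Prkcq, a kinase that links the receptor to NF-kappaB, had -0.48 (adjusted p = 0.000674). Grap2, an adaptor, was at 49.4, 52.3 and 55.7 CPM at BAR day 14, against 86.8, 84.6, 85, 90.8 and 94.4 CPM at BAR day 10 (log2 fold change -0.75, SE 0.11, adjusted p = 9.43e-05), and its groups did not overlap. Ubash3b, a phosphatase that damps receptor signals, rose by 0.79 (adjusted p = 1.01e-05). Cd3e, a chain of the receptor complex, was at 1317, 1079 and 1327 CPM at BAR day 14, against 1086, 859, 738, 1014 and 972 CPM at BAR day 10 (log2 fold change 0.41, SE 0.12, adjusted p = 0.0127). Without the drug 23 members of this list rose and 3 fell, where 17.6% and 20.9% of all genes did so. The courses differed for 1 higher and 10 lower, beside 5.0% and 5.33% of all genes. Under T cell scaling, which is built on such genes, these differences became 3 and 1. The median difference of the list less that of all genes was -0.34 in the main fit and -0.32 under T cell scaling. In the BAR course 3 were higher and 1 lower with the neutrophil covariate, and the list median of -0.05 turned to 0.04.

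**Figure D3:**
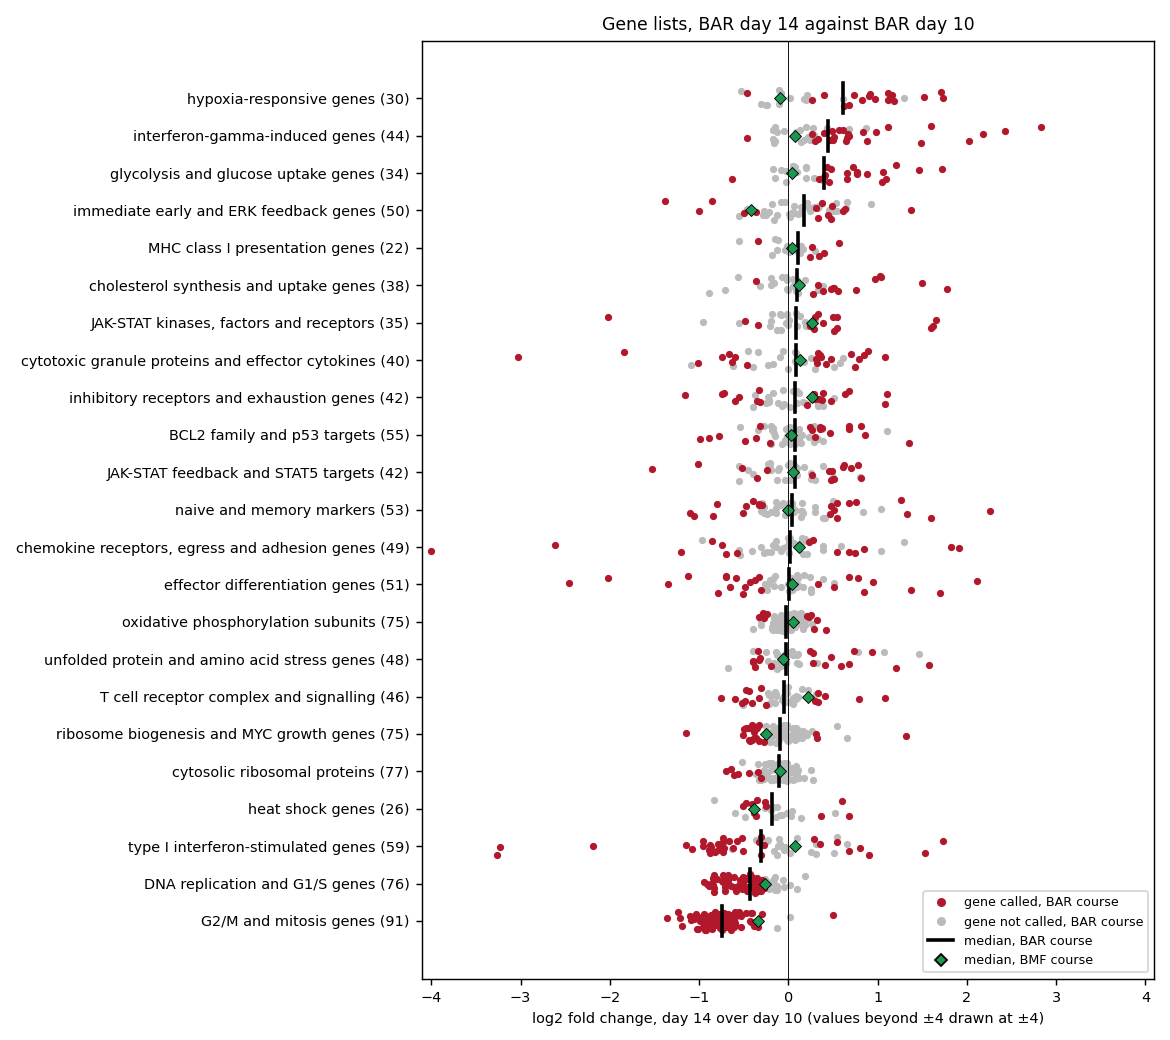
Log2 fold change of BAR day 14 over BAR day 10 (horizontal axis; values beyond 4 drawn at 4) for every tested member of 23 gene lists (rows, number tested in brackets): red points passed an adjusted p under 0.05, grey points did not, black bars are medians, and green diamonds are the medians of the BMF course. Mitosis genes have the lowest median at -0.75 (BMF course -0.34) and hypoxia-responsive genes the highest at 0.62 (BMF course -0.09).

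Cell division genes were lower at day 14 almost throughout. Of 91 genes of G2 and mitosis, 88 fell and 1 rose, where 19.8% and 19.2% of all genes did so, and their median was -0.75. Kifc1, a kinesin that holds spindle poles together, was at 12.3, 8.06 and 8.57 CPM at BAR day 14, against 24.6, 27.1, 22.4, 26.3 and 23.1 CPM at BAR day 10 (log2 fold change -1.36, SE 0.12, adjusted p = 1.37e-06). Birc5, or survivin, part of the complex that corrects chromosome attachment, was at 148, 145 and 147 CPM at BAR day 14, against 302, 259.9, 249, 306 and 278 CPM at BAR day 10 (log2 fold change -0.93, SE 0.09, adjusted p = 1.52e-06). Neither gene had overlapping days. Ckap2 and Troap, spindle-associated proteins, had -1.03 (adjusted p = 1.81e-06) and -1.10 (adjusted p = 1.22e-06). Mki67, the proliferation marker Ki-67, was at 309.9, 235 and 268 CPM at BAR day 14, against 531, 518, 563, 586 and 500.2 CPM at BAR day 10 (log2 fold change -0.99, SE 0.15, adjusted p = 0.000111). Top2a, the topoisomerase that untangles sister chromatids, was at 382, 314 and 379 CPM at BAR day 14, against 612, 504, 616, 679.6 and 547 CPM at BAR day 10 (log2 fold change -0.72, SE 0.13, adjusted p = 0.00047). The 1 member that rose, named after its values were seen, was Iqgap3 at 0.50 (adjusted p = 0.0158).

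The letters TTTGAA were in 47 of the 74 mitosis windows (63.5%), beside 12.5% of all windows, and CCAAT, the box that often stands beside them, in 52 (70.3%) beside 38.7%. Of the 47 genes with TTTGAA 45 fell (median -0.74), and of the 27 without 26 fell (median -0.72).

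Replication genes fell less far, with 58 of 76 lower, 0 higher and a median of -0.43, beside 19.8% and 19.2% of all genes. Tk1, the thymidine kinase of S phase, was at 89.4, 77.8 and 88.2 CPM at BAR day 14, against 193, 133, 157, 183 and 154 CPM at BAR day 10 (log2 fold change -0.95, SE 0.11, adjusted p = 7.36e-06). Prim1, a primase subunit, had -0.84 (adjusted p = 1.41e-05), and the groups were apart for both genes. Mcm5, a subunit of the replicative helicase, gave -0.27 (adjusted p = 0.0363) with overlapping groups, and Ccne2, a cyclin of the G1 to S transition, -0.26 (adjusted p = 0.0878). Cdkn2c, an inhibitor of the kinases that open G1, was lower as well, at 76.5, 59.3 and 69.9 CPM at BAR day 14, against 132, 89.3, 119.9, 133 and 113 CPM at BAR day 10 (log2 fold change -0.78, SE 0.13, adjusted p = 0.000277). Mxd3, a MYC network repressor expressed in S phase, was at 12.1, 11.7 and 11.3 CPM at BAR day 14, against 29.1, 23.7, 27.2, 29 and 26.1 CPM at BAR day 10 (log2 fold change -1.21, SE 0.10, adjusted p = 9.25e-07). Mxd3 changed by -0.12 (adjusted p = 0.353) without the drug, a difference of -1.09 (adjusted p = 0.000481).

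Division genes were also lower at BMF day 14, with 55 of 91 mitosis genes falling and 1 rising (median -0.34). Of the 76 replication genes 38 fell and 2 rose there (median -0.26), where 20.9% and 17.6% of all genes did so. The fall of the mitosis list was deeper under baricitinib for 37 genes and shallower for 0. Over all genes 5.33% had the lower change under baricitinib and 5.0% the higher. For Kifc1 the courses differed by -0.65 (adjusted p = 0.0199), a call lost under T cell scaling at -0.33 (adjusted p = 0.339). Under T cell scaling, which moved the median difference of all genes to 0.34, 1 was deeper and 1 shallower, and with the neutrophil covariate 20 were deeper. The median difference of the mitosis list less that of all genes was -0.41 both in the main fit and under T cell scaling. With the neutrophil covariate 71 of 91 mitosis genes and 16 of 76 replication genes fell within the BAR course, and 0 rose.

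Ribosome biogenesis genes leaned lower, 19 of 75 against 3 higher, at a median of -0.09. Their called share of 29.3% was below the 39.1% of all genes. Taf1d, a subunit of the RNA polymerase I initiation factor, was at 32.3, 25.9 and 30.1 CPM at BAR day 14, against 67.7, 67, 58.5, 67.2 and 66.5 CPM at BAR day 10 (log2 fold change -1.15, SE 0.14, adjusted p = 1.1e-05). Nop56 and Ddx21, which shape ribosomal RNA, had -0.50 (adjusted p = 0.000124) and -0.44 (adjusted p = 0.0013), and Myc itself gave -0.20 (adjusted p = 0.114). With the neutrophil covariate 0 rose and 1 fell, and the median was 0.05. Cytosolic ribosomal proteins were lower in 7 of 77 cases and higher in 0, a called share of 9.09%. Their median of -0.11 turned to 0.07 with that covariate.

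Sugar metabolism and low-oxygen genes were mostly higher. Of 34 genes of glycolysis, glucose uptake and the pentose phosphate branch, 19 rose and 1 fell (median 0.40). Of 30 hypoxia-responsive genes 16 rose and 1 fell (median 0.62). Over all genes 19.2% rose and 19.8% fell. Hk2, the hexokinase shown above, was at 28.9, 27.2 and 29 CPM at BAR day 14, against 13.7, 16.5, 17.2, 14.5 and 15.1 CPM at BAR day 10 (log2 fold change 0.88, SE 0.11, adjusted p = 1.58e-05). Day 14 levels were 1.84 times the day 10 levels and did not overlap with them. Pgd, an enzyme of the pentose phosphate branch, was at 259.9, 281 and 242 CPM at BAR day 14, against 121, 123, 131, 117 and 138 CPM at BAR day 10 (log2 fold change 1.05, SE 0.13, adjusted p = 1.29e-05). Tkt and Gpi1, a further enzyme of that branch and the second enzyme of glycolysis, had 0.65 (adjusted p = 1.54e-05) and 0.72 (adjusted p = 5.49e-05), whereas Ldha, which makes lactate, gave -0.15 (adjusted p = 0.283).

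Ndrg1, a stress gene induced by low oxygen, was at 9.95, 9.31 and 8.34 CPM at BAR day 14, against 3.53, 4.44, 4.5, 3.28 and 4.81 CPM at BAR day 10 (log2 fold change 1.16, SE 0.17, adjusted p = 6.37e-05). In the BMF course it moved the opposite way, with -1.20 (adjusted p = 9.52e-05), so that the courses differed by 2.36 (adjusted p = 0.000259). Hk2 likewise changed by -0.40 (adjusted p = 0.0114) without the drug, a difference of 1.28 (adjusted p = 0.000481). Bnip3l, which marks mitochondria for removal, was at 192, 213 and 183 CPM at BAR day 14, against 106, 117, 95.5, 94.6 and 110.4 CPM at BAR day 10 (log2 fold change 0.90, SE 0.09, adjusted p = 1.81e-06). Gbe1, which branches glycogen, had 1.18 (adjusted p = 1.89e-06). The letters ACGTG were in 56.0% of hypoxia-list windows and 42.4% of glycolysis windows, beside 24.8% of all windows. Over the lists the courses differed for 11 glycolysis and 9 hypoxia genes. All had the higher change under baricitinib, as did 5.0% of all genes. The neutrophil covariate left 6 and 6 of these differences.

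Neutrophils also rely on glycolysis, and these lists moved with the neutrophil markers. With the neutrophil covariate 8 of 34 glycolysis genes and 9 of 30 hypoxia genes rose and none fell, at medians of 0.32 and 0.38; Hk2 came to 0.64 (adjusted p = 0.0129) and Pgd to 0.57 (adjusted p = 0.00688). T cell scaling left 11 higher and 1 lower of the glycolysis genes and 12 higher and 2 lower of the hypoxia genes. The part of neutrophil RNA in these rises was not tested, and these fits cannot give it.

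Lipid genes rose in part, 13 of 38 against 1 that fell, a called share of 36.8% beside 39.1% of all genes. Abcg1, which exports cholesterol, was at 86.7, 142 and 100.4 CPM at BAR day 14, against 34, 48, 39.8, 32.3 and 40.0 CPM at BAR day 10 (log2 fold change 1.5, SE 0.14, adjusted p = 2.25e-06). Fdps and Msmo1, enzymes of sterol synthesis, and Scd2, a fatty acid desaturase, had 1.04 (adjusted p = 4.45e-05), 0.97 (adjusted p = 4.7e-05) and 1.02 (adjusted p = 2.25e-05), with no overlap between the days. Hmgcs1, at the head of the sterol pathway, gave 0.05 (adjusted p = 0.685) with overlapping groups. The list median of 0.10 turned to -0.02 under T cell scaling.

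Survival and stress genes moved singly. Bcl2l11, which encodes the death-inducing protein BIM, was lower, at 61.7, 32.2 and 56.2 CPM at BAR day 14, against 115, 75.2, 81.6, 107 and 84.2 CPM at BAR day 10 (log2 fold change -0.89, SE 0.19, adjusted p = 0.00189). Pmaip1, the gene of NOXA, had -0.49 (adjusted p = 0.000588). Bcl2, which guards against both, gave 0.39 (adjusted p = 0.0526), with every day 14 library above every day 10 library, and did not pass the test. Xpc, a DNA damage sensor and p53 target, was at 39.5, 53.3 and 42.8 CPM at BAR day 14, against 14.4, 20.9, 18.7, 15.3 and 19.4 CPM at BAR day 10 (log2 fold change 1.35, SE 0.14, adjusted p = 4e-06). The p53 target Cdkn1a gave 0.28 (adjusted p = 0.165). Fosl2, an AP-1 factor, was at 36.5, 32.1 and 34.6 CPM at BAR day 14, against 10.9, 14.3, 15.5, 11 and 15 CPM at BAR day 10 (log2 fold change 1.37, SE 0.17, adjusted p = 1.58e-05). Dusp2, a phosphatase of the ERK pathway, was at 46.5, 27 and 34.8 CPM at BAR day 14, against 59.1, 64.9, 70.4, 61.4 and 71.1 CPM at BAR day 10 (log2 fold change -0.86, SE 0.18, adjusted p = 0.0018). Asns, the asparagine synthetase of the amino acid stress response, rose by 0.93 (adjusted p = 0.00013) and differed from the BMF course by 1.06 (adjusted p = 0.00501). Of 55 genes of the BCL2 family and p53 targets 12 rose and 7 fell, a called share of 34.5% beside 39.1% of all genes. The counts were 2 and 3 with the neutrophil covariate, a fit that called 1550 of all 14862 genes. They were 3 and 8 under T cell scaling, which called 1154 higher and 3089 lower. Heat shock genes were lower in 8 of 26 cases and higher in 3, a called share of 42.3% beside 39.1% of all genes. Only 1 was higher and 0 lower with the neutrophil covariate, as without BAR day 10 replicates 1, 4 and 5.

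Homing and adhesion genes had 8 of 49 higher and 7 lower, a called share of 30.6%, below the 39.1% of all genes, and 4 and 8 under T cell scaling. Cxcr6, a receptor that keeps T cells in tissues, was at 1321, 1537 and 1607 CPM at BAR day 14, against 1051, 877, 814, 992 and 926 CPM at BAR day 10 (log2 fold change 0.68, SE 0.09, adjusted p = 3.06e-05). It changed by 0.91 (adjusted p = 3.08e-06) without the drug. Cxcr4, which holds cells in the marrow, gave 0.39 (adjusted p = 0.0999) and differed from the BMF course by 1.19 (adjusted p = 0.0107). Cxcr3, the receptor for interferon-gamma-induced chemokines, gave -0.06 (adjusted p = 0.818) and differed the other way, by -0.83 (adjusted p = 0.0407). The Cxcr3 call was lost in both other fits, with -0.76 (adjusted p = 0.118) under the neutrophil covariate and -0.50 (adjusted p = 0.158) under T cell scaling. Oxidative phosphorylation subunits had 6 of 75 higher and 4 lower, a called share of 13.3%. The counts were 0 and 0 with the neutrophil covariate, 0 and 10 under T cell scaling, and 13 and 0 without BAR day 10 replicates 1, 4 and 5. Unfolded protein and amino acid stress genes had 11 of 48 higher and 7 lower, a called share of 37.5% beside 39.1% of all genes. These became 0 and 0 with the neutrophil covariate and 2 and 7 under T cell scaling. Immediate early genes had 9 of 50 higher and 5 lower, a called share of 28%, at a median of 0.18. Under T cell scaling 4 were higher and 5 lower. In the BMF course 6 were higher and 16 lower (median -0.41), beside 17.6% and 20.9% of all genes. MHC class I presentation genes had 5 of 22 higher and 1 lower, a called share of 27.3%. Their median of 0.11 turned to -0.01 under T cell scaling, with 1 higher and 2 lower.

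Among the 12 largest rises of the whole comparison, Ngp, Mpo, Elane, Fcnb and Cebpe are granule genes or factors of developing neutrophils. Ngp, a granule protein, was at 13047, 20722 and 13262 CPM at BAR day 14, against 1249, 3358, 2632, 1299 and 3444 CPM at BAR day 10 (log2 fold change 2.71, SE 0.65, adjusted p = 0.00643). Mpo, the granule peroxidase, was at 1306, 2093 and 1644 CPM at BAR day 14, against 122, 471, 159, 132 and 439.7 CPM at BAR day 10 (log2 fold change 2.67, SE 0.93, adjusted p = 0.0384). The day 14 libraries lay above every day 10 library in both. In all 17 of 23 neutrophil genes rose and 0 fell, at a median of 2.17. In the BMF course 1 rose and 0 fell, at a median of 1.16. The difference between the courses was called for 0 of the 23. The neutrophil sums without the drug were 2930, 16712 and 23540 CPM at BMF day 14. At BMF day 10 they were 8734, 6439, 2722, 3546 and 10214 CPM. Susd2, a membrane protein gene also among the 12, was at 69.2, 48.9 and 43 CPM at BAR day 14, against 7.18, 6.42, 7.79, 8.89 and 8.93 CPM at BAR day 10 (log2 fold change 2.77, SE 0.16, adjusted p = 1.55e-08). With the neutrophil covariate it came to 2.54 (adjusted p = 1.48e-05).

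Erythroid genes rose under the drug and fell without it. The 17 summed genes stood at 1693, 1001 and 869 CPM at BAR day 14, against 286, 574, 398, 253 and 497 CPM at BAR day 10 (2.96-fold; exact permutation p = 0.0357, adjusted 0.0774). Of 13 tested, 9 rose and 0 fell in the BAR course, 0 rose and 11 fell in the BMF course, and the courses differed for all 13. Tmcc2, a membrane protein gene high in red cell precursors, was at 14.1, 8.26 and 10.2 CPM at BAR day 14, against 0.672, 1.7, 2.25, 0.718 and 1.67 CPM at BAR day 10 (log2 fold change 2.95, SE 0.53, adjusted p = 0.000759). Tmcc2 changed by -0.76 (adjusted p = 0.407) without the drug. Progenitor genes summed to 711, 683 and 673 CPM at BAR day 14, against 183, 305, 228, 165 and 365 CPM at BAR day 10. Monocyte genes summed to 4106, 4777 and 3895 CPM at BAR day 14, against 742, 1357, 1321, 690.2 and 1386 CPM at BAR day 10. Most of the monocyte sum was Lyz2, which neutrophils share. Gene by gene, 7 of 25 monocyte genes rose and 5 fell, at a median log2 fold change of 0.01. Their called share was 48% beside 39.1% of all genes. The mean log2 level of these genes differed by 0.31 (exact permutation p = 0.143, adjusted 0.186).

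B cell genes made up most of the largest falls. Vpreb3, a precursor B cell protein, was at 0.278, 0.191 and 0.342 CPM at BAR day 14, against 12.4, 8.66, 85.2, 12.4 and 2.73 CPM at BAR day 10 (log2 fold change -6.47, SE 1.37, adjusted p = 0.00335). Cd79a, which signals for the B cell receptor, was at 0.389, 1.22 and 0.501 CPM at BAR day 14, against 12, 9.77, 78.2, 12.2 and 3.59 CPM at BAR day 10 (log2 fold change -5.02, SE 1.14, adjusted p = 0.00478). For both, day 10 replicate 3 was several times above the other day 10 libraries. The B cell sum was 35.6, 51.2 and 39.0 CPM at BAR day 14, against 111, 100.2, 547, 94.6 and 47.5 CPM at BAR day 10, and 14 of 20 genes fell and 0 rose. Dendritic cell genes summed to 1534, 1763 and 1839 CPM at BAR day 14, against 1217, 1074, 4693, 1021 and 955 CPM at BAR day 10, where replicate 3 was again the highest. Gene by gene, however, 0 of 23 rose and 8 fell, at a median log2 fold change of -0.65. Their mean log2 level differed by -0.74 (exact permutation p = 0.0357, adjusted 0.058). Bst2, described above with the type I genes, is also on this dendritic cell list. The ratio of mean sums at BAR day 14 over BAR day 10 was 1.10 for natural killer cells, 1.0 for CD4 T cells, 0.873 for gamma delta T cells, 1.29 for stroma and 1.19 for RNA quality genes, each with overlapping libraries. It was 3.42 for mast cells and basophils and 1.86 for megakaryocytes, without overlap. Of 14 natural killer genes tested, however, 2 rose and 6 fell, at a median log2 fold change of -0.94. Their mean log2 level differed by -0.28 (exact permutation p = 0.0357, adjusted 0.058). Gzma and Klre1, described above, are on that list. The part of these other cells in the T cell results was not tested, and the fits given beside them cannot give it.

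**Figure D4:**
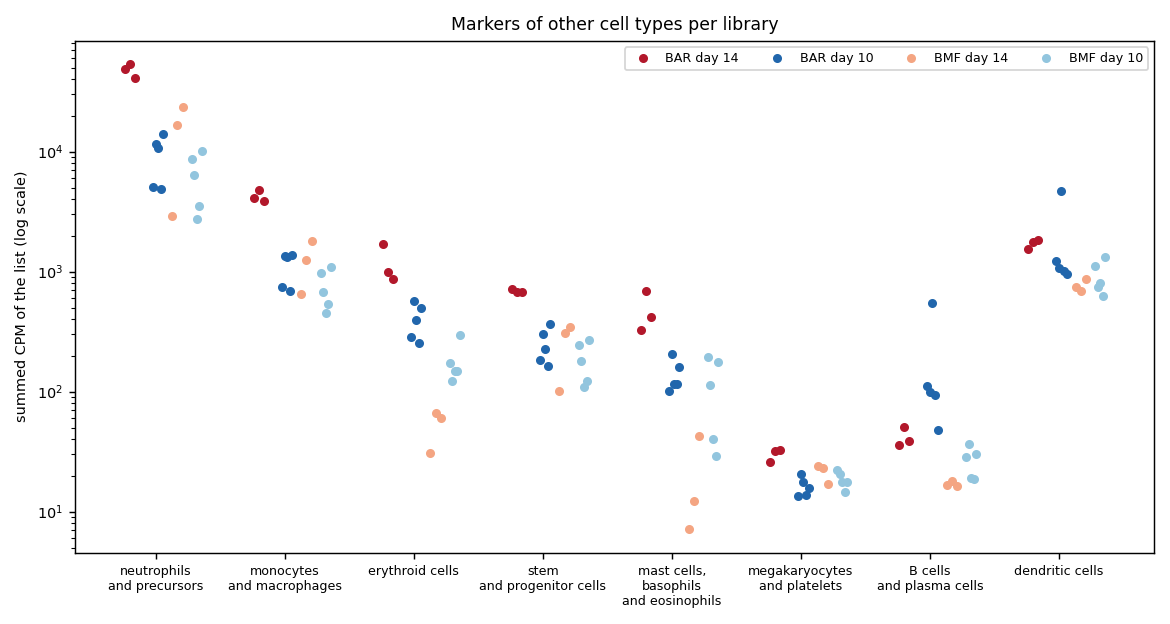
Summed CPM of marker genes of 8 other cell types (log scale) in each library of BAR day 14 (red), BAR day 10 (dark blue), BMF day 14 (orange) and BMF day 10 (light blue). Neutrophil sums are 40953 to 53757 CPM at BAR day 14 and 4885 to 14100 CPM at BAR day 10, and the highest B cell and dendritic cell points, 547 and 4693 CPM, belong to BAR day 10 replicate 3.

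**Figure D5:**
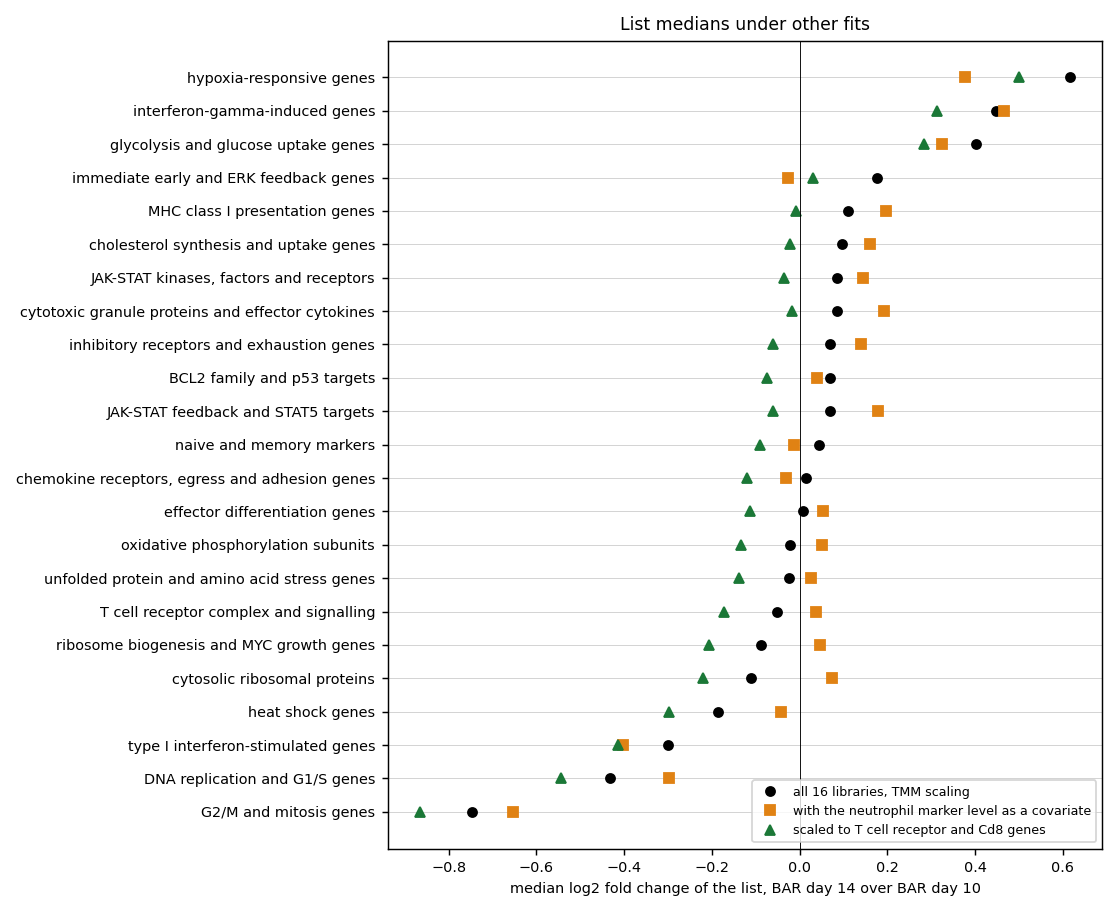
Median log2 fold change of BAR day 14 over BAR day 10 (horizontal axis) of 23 gene lists (rows) in the fit to all 16 libraries (black circles), with the neutrophil marker level as a covariate (orange squares) and with libraries scaled to T cell receptor and Cd8 genes (green triangles). The 6 lists with the largest medians, both interferon lists, both division lists, glycolysis and hypoxia, keep their sign in all 3 fits, while the 15 lists with medians nearest 0 change sign in at least 1 of the other fits.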

How the data were processed

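Bone marrow CD8+ T cells were sorted by flow cytometry and the SMART-Seq mRNA LP kit was used on polyadenylated RNA, per the labels' protocols. The submitters' processing notes name HISAT2 2.0.5 and mm10. Tool, annotation and strand setting of the counting: not given in the sources used here. The deposited table held raw read counts for 24421 gene entries, of which 27 that had turned into calendar dates were left out. Libraries were grouped by treatment label, and replicate numbers follow accession order only. Members and gene lists were chosen with earlier results of these data known.

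All 16 libraries entered 1 edgeR 4.0.16 quasi-likelihood fit (R 4.3.3) with 4 groups, TMM scaling, the default filter on low counts by group, robust estimation and no covariate. Contrasts were BAR day 14 minus BAR day 10, BMF day 14 minus BMF day 10, and the first minus the second; p-values were Benjamini-Hochberg adjusted over the 14862 genes tested, with a threshold of 0.05. CPM values are counts relative to TMM-scaled library size, log2 fold changes are from the fit, and their SE was taken from the F statistic. For summed markers the test was an exact permutation of libraries (two-sided), with p adjusted over 13 lists. Genes were named by rule: the 12 largest rises and 12 largest falls with at least 10 CPM in a group and no overlap, up to 4 members of each list by p, a set of anchor genes, the 10 clearest differences between the courses, and members of marker lists. A few of these genes are not reported here. Motif letters were searched in RefSeq promoter windows, and gene positions are from GENCODE vM21. The code was tested on simulated data. Alternatives included DESeq2 1.42.0, limma 3.58.1, other filters, libraries left out, the neutrophil covariate and T cell scaling.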

Additional observations from a re-analysis of the deposited data

Results flagged for a closer look

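BAR day 10 replicate 3 stood apart from the other 4 day 10 libraries more often than any other. Among 162 named genes and 13 marker sums, 17 genes and 4 sums had 1 day 10 library that stood apart. Its gap to the next was over 0.71 of the range, and it was replicate 3 in 18 of the 21. Chance alone gives such a gap for about 5% of independent groups, but many of these genes mark the same cell types. Blnk, Ebf1 and Fcrla were named as largest falls, which needed a mean of at least 10 CPM in a group. Only replicate 3 was above 10 CPM for them at day 10, so the count cannot be set against that 5%. Among genes of the B cell list, replicate 3 was highest for Cd79a at 78.2 CPM, Vpreb3 at 85.2, Fcrla at 36.5, Ebf1 at 36.2, Blnk at 33.5 and Mzb1 at 33.3. Among genes of the dendritic cell list, it was highest for Spib at 82.9 CPM and Ly6d at 61.2. It was also highest for Ccr7 at 16.5 CPM and Il7r at 29.5 CPM, and for the summed markers of B cells at 547 CPM, dendritic cells at 4693 CPM and gamma delta T cells at 10.4 CPM. It was lowest for Cx3cr1 at 44.7 CPM, Dnaja4 at 18.8 CPM, Ndufa7 at 182 CPM, Stat4 at 153 CPM and Taf1d at 58.5 CPM. Replicate 2 was lowest for Gzma at 211 CPM and Tkt at 327 CPM, and highest for the stroma sum at 42.7 CPM.

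The change between the days differed between the courses for 50 of the named genes at an adjusted p under 0.05 in edgeR's quasi-likelihood test of the difference. With the neutrophil covariate 33 of the 50 were still called, and with T cell scaling 32, and 0 changed sign in either. The log2 difference, BAR course minus BMF course, was positive for 23. Among interferon-induced genes these were Gbp2 at 1.75, Igtp at 1.0, Irgm2 at 0.96 and Irgm1 at 0.65. Among sugar and low-oxygen genes they were Ndrg1 at 2.36, Hk2 at 1.28, Pgd at 0.71, Tkt at 0.60, Gpi1 at 0.48 and Bnip3l at 0.44. Lipid genes were Fdps at 1.04, Scd2 at 1.01 and Abcg1 at 0.79. The others were Tmcc2 at 3.71, Mnda at 1.66, Cxcr4 at 1.19, Fosl2 at 1.11, Ccl3 at 1.07, Asns at 1.06, Il12rb2 at 0.99, Cd44 at 0.95, Susd2 at 0.90 and Xpc at 0.66.

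The difference was negative for 27 genes. Type I interferon-stimulated genes were Ifi27l2a at -2.08, Mx1 at -1.49, Dhx58 at -1.11, Phf11b at -1.03, Pml at -0.99, Irf7 at -0.96, Bst2 at -0.70 and Usp18 at -0.62. Killing and effector genes were Gzma at -2.76, Ccl5 at -0.89, Gzmk at -0.81, Fasl at -0.69, Eomes at -0.55 and Klrk1 at -0.55. Division genes were Troap at -0.74, Kifc1 at -0.65, Tk1 at -0.61, Ckap2 at -0.47 and Birc5 at -0.43. Mxd3, the MYC network repressor, was at -1.09, and Cdkn2c, an inhibitor of the kinases that open G1, at -1.11. The rest were Cd200r1 at -1.53, Osbpl5 at -0.99, Itpkb at -0.93, Cxcr3 at -0.83, Icam2 at -0.66 and Klf10 at -0.59.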

How the results depend on the processing

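The BAR course had 5808 calls, 4243 under T cell scaling, and 4661 to 6243 under the other size factors, filters, tools, a fit to the 8 BAR libraries, removal of abundant or marker genes and thinning to equal depth. Testing against a fold of 1.5 left 896 calls, the neutrophil covariate 1550, and leaving out BAR day 10 replicates 1, 4 and 5 left 3472. Leaving out 1 library gave 3842 (without BAR day 14 replicate 2) to 5624. The BMF course had 5728 calls, 846 against a fold of 1.5 and 4348 to 6241 with 1 library left out. The difference between the courses had 1535 calls, 160 against a fold of 1.5, 903 with the neutrophil covariate, and 679 to 2025 with 1 library left out; it was 679 without BMF day 14 replicate 2, 846 without BMF day 14 replicate 1 and 827 without BAR day 14 replicate 2. The cause was not tested. T cell scaling was chosen after seeing the data; the share of calls that were higher was 27.2% with it, against 49.2% without, in the BAR course, 3.07% against 45.8% in the BMF course, and 92.4% against 48.4% for the difference. Of 168 named genes, 131 were called. Over 22 settings, 205 gene values lost the call, 47 of them with the neutrophil covariate, and 25 gained it. The neutrophil genes Elane and Mpo reversed with that covariate, at -0.66 and -0.68. Both are among the genes summed in the covariate, so the loss of their rise is built into that fit. With no filter on low counts the median log2 fold change of all genes was -0.28. No paired analysis was possible because replicate numbers follow accession order. At 32717375 counts or more per library, depth limits mainly the genes of at most 0.5 CPM.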
